A study of Mus musculus with 18 samples.

Results

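The genes described here are 33 enzymes and regulators of cholesterol and fatty acid synthesis, out of 18264 genes in an expression table in FPKM, the fragments of a gene per kilobase of its length, set against the size of its library. They were taken by symbol from a list of 8 early mevalonate genes, 3 squalene and lanosterol genes, 8 sterol ring genes, 5 regulators and sterol transport genes, and 9 fatty acid and lipid genes. All 33 were found in the table. Messenger RNA was sequenced from unsorted mouse neonatal ventricular cardiac fibroblasts (NVCFs), in 18 libraries that form 6 groups of 3. OE-Foxm1 cells overexpressed Foxm1, which encodes a forkhead protein that drives mitotic genes, and OE-NC was their control. In the knockdown arm, si-Foxm1+Ang-II cells received siRNA against Foxm1 and the hypertrophic hormone angiotensin II, Ang-II cells the hormone, si-Foxm1 cells the siRNA, and si-NC cells a negative control. The labels do not state the overexpression vector, the doses and times, the mouse strain, or what siRNA, if any, the Ang-II cells had. Nor do they state whether replicates came from separate cultures or animals, so p-values measure the spread between these samples, which may be technical.

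Cholesterol is built from acetyl-CoA through mevalonate, farnesyl pyrophosphate, squalene and lanosterol, and the lanosterol ring is then trimmed and rearranged to cholesterol. Fatty acids are built from the same acetyl-CoA by carboxylation and repeated elongation, and are then desaturated. SREBP transcription factors, encoded by Srebf1 and Srebf2, drive most of these genes when sterol in the endoplasmic reticulum is low, and INSIG proteins hold them back when sterol is plentiful. Dividing cells use both routes to build membranes.

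Library totals were 14988993 to 19343343 fragments, and the OE-NC libraries were the smallest. Foxm1 was 399 to 487 FPKM in OE-Foxm1 and 15.7 to 17.1 in OE-NC. It was 3.03 to 3.55 FPKM in si-Foxm1+Ang-II, 4.03 to 5.65 in Ang-II, 5.13 to 6.71 in si-Foxm1 and 9.64 to 10.4 in si-NC. Its log2 fold change was 4.69 ± 0.07 (standard error) for OE-Foxm1 against OE-NC and -0.68 ± 0.10 for si-Foxm1 against si-NC. Foxm1 stood at -0.99 ± 0.10 in Ang-II against si-NC, -0.38 ± 0.10 in si-Foxm1+Ang-II against Ang-II and -0.69 ± 0.10 in si-Foxm1+Ang-II against si-Foxm1, and the difference between the fall in Ang-II and that in si-Foxm1 was not tested. The groups did not overlap in any of these comparisons, although an exact two-sided permutation test of 3 against 3 cannot go below p = 0.1. Fibroblast genes were abundant, with group means of 575 to 1355 FPKM for Col1a1 and 947 to 1095 for Postn. Some cardiomyocyte markers were abundant too: Actc1, the cardiac actin gene, averaged 382 to 2839 FPKM per group. Others were lower, such as Myh7 at 2.20 to 12.2 and Tcap at 1.90 to 27.2. Of 9 adipocyte markers 6 were in the table. The defining ones were near 0, with Adipoq at most 0.0991 FPKM in any library, Retn at most 0.0426 and Plin1 at most 0.0348. Fabp4, which endothelial cells and macrophages also express, averaged 5.44 to 13.7 FPKM per group and Lipe 1.48 to 1.86. The summed adipocyte markers were 15.1 to 16.7 FPKM in OE-Foxm1 and 12.5 to 13.3 in OE-NC. They were 6.73 to 8.41 FPKM in si-Foxm1+Ang-II, 7.64 to 8.53 in Ang-II, 12.4 to 13.4 in si-Foxm1 and 11.4 to 14.02 in si-NC, and their part in the results was not tested.

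To show where these genes start, the 250 bases before the RefSeq start site (GRCm38.p6, a build other than the authors' mm39) are printed for Mvd, Sc5d and Hmgcs1. Mvd was among the genes that moved furthest in both arms, and Sc5d fell the furthest with the siRNA. Hmgcs1 was the single gene in which the string TCACNCCAC, a form of the sterol regulatory element, was found. Mvd lies at chr8:122443423-122443672 and Sc5d at chr9:42264301-42264550, both on the minus strand, and Hmgcs1 at chr13:119690101-119690350 on the plus strand. Each is written 5′ to 3′ along its gene, and capitals mark CCAAT boxes (CCAAT or its reverse complement ATTGG) and, in Hmgcs1, TCACCCCAC.
Mvd: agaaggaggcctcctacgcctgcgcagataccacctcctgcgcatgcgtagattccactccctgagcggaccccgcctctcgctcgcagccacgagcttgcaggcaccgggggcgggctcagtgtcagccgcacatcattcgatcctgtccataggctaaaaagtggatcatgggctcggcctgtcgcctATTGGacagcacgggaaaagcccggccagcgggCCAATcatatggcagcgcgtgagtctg
Sc5d: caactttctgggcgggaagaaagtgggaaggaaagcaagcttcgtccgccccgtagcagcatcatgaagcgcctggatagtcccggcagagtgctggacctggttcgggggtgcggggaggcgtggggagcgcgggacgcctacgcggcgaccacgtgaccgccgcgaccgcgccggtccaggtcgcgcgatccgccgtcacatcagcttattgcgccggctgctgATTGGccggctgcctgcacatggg
Hmgcs1: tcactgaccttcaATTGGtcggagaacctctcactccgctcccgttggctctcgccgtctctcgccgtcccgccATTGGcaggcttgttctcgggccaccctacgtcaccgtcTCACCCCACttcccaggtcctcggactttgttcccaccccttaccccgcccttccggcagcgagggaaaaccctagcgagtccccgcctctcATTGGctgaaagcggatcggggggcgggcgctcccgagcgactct

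The nearest CCAAT box began 24 bases before the start site in Sc5d, 27 in Mvd and 45 in Hmgcs1. Of the 33 genes, 26 had a promoter in the RefSeq table. On either strand of the 250 bases before any of a gene's starts, CCAAT occurred in 20 of these 26 genes (76.9%), against 37.5% of all 27025 genes in that table. The form TCACNCCAC of the sterol regulatory element, a binding sequence of SREBP, was found in 1 of the 26 (3.8%, Hmgcs1) and in 1.2% of all genes. Only this string was searched, so other forms of the element would have been missed. The E-box CACGTG occurred in 4 (15.4%, against 6.9% of all genes), and TAAACA, the forkhead core, in 3 (11.5%, against 13.5%). A CCAAT and an ATTGG of Fasn shared 2 bases, and no other match in the 26 genes overlapped another. All 27025 genes were used whether or not they were expressed here, so these shares are not those of expressed genes. These counts describe letters in a window of fixed length, and say nothing of binding in these cells.

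Levels spanned a wide range. Scd2, a stearoyl-CoA desaturase, was the most abundant of the 33, at 296 to 506 FPKM over the 18 libraries, followed by Fdps (184 to 244 FPKM) and Insig1 (147 to 224 FPKM). The least abundant were Tm7sf2 (6.87 to 13.5 FPKM), Pmvk (7.31 to 13.7 FPKM) and Ggps1 (8.94 to 10.8 FPKM). Recovered counts were never below 160 fragments per library. As no value was below 6.87 FPKM, all 33 passed the filter of a mean of 1 FPKM in both arms. Summed over the 33 genes, the libraries held 2562 to 2675 FPKM in OE-Foxm1 and 1980 to 2063 in OE-NC. The sums were 2136 to 2162 FPKM in si-Foxm1+Ang-II, 2441 to 2621 in Ang-II, 2105 to 2183 in si-Foxm1 and 2487 to 2510 in si-NC. Within the knockdown arm, both groups with the siRNA thus lay below both groups without it, and OE-NC lay below every other group.

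**Figure D1:**
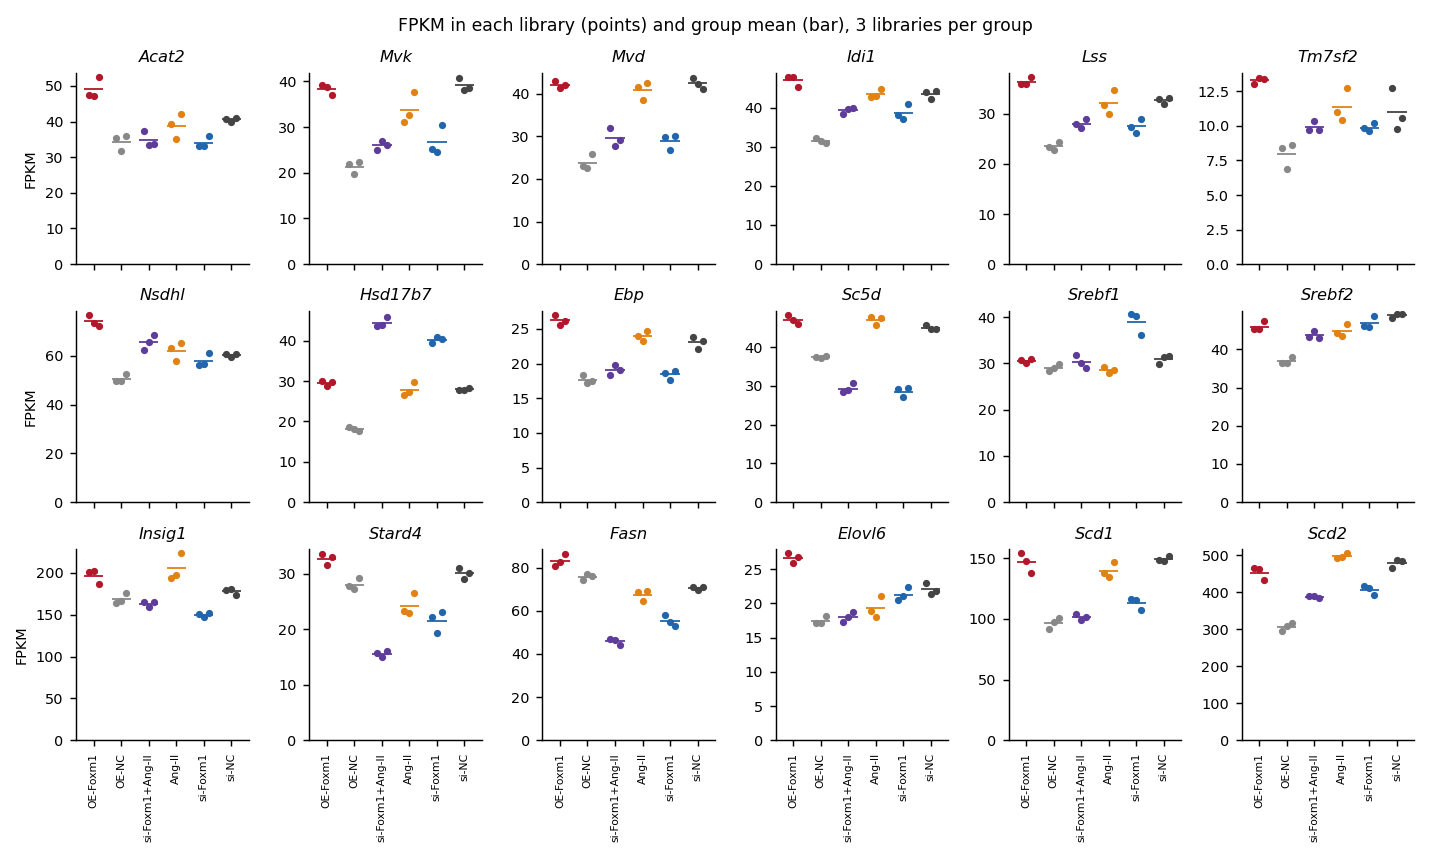
FPKM (vertical axis, from 0, a scale of its own in each panel) of 18 genes in each library, by group on the horizontal axis; points are libraries and bars are group means of 3. Most panels show OE-Foxm1 above OE-NC and, within the knockdown arm, the groups with siRNA below those without. An example is Mvd (41.4 to 43.0 FPKM in OE-Foxm1, 22.5 to 25.9 in OE-NC, 26.9 to 30.1 in si-Foxm1 and 41.2 to 43.8 in si-NC), while Hsd17b7 was high in both groups with siRNA.

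Foxm1 knockdown in unstimulated cells was read from si-Foxm1 against si-NC. Most genes of the sterol route fell, and the fatty acid genes moved both ways, with Fasn and both stearoyl-CoA desaturases lower and Acaca and Lpin1 higher. No change reached 2-fold. Of the 33 genes, 22 fell and 5 rose at an adjusted p under 0.05, against 17.2% of all 11180 tested genes that fell and 48.5% that rose. The falls ran from -0.64 to -0.13 and the rises from 0.12 to 0.51 on the log2 scale of FPKM + 1, on which all fold changes here are given, with standard errors of 0.03 to 0.08 and 3 libraries in each group. The median change was -0.21 over the 33 genes and 0.11 over all tested genes. That second value is a shift which median-of-ratios scaling removes (0.00), and relative to it the 33 genes stood at -0.32. With that scaling there were 28 lower and 4 higher genes, against 29.3% of all tested genes lower and 26.4% higher.

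Early in the mevalonate route, 7 of 8 genes fell and 1 rose (7 and 0 with median-of-ratios scaling). Mvk, mevalonate kinase, had 25.1, 24.6 and 30.5 FPKM in si-Foxm1, against 40.7, 38.2 and 38.5 FPKM in si-NC, and fell by 0.54 ± 0.08 (adjusted p = 3.17e-05). Mvd, the decarboxylase that yields isopentenyl pyrophosphate, had 29.8, 26.9 and 30.1 FPKM in si-Foxm1, against 43.8, 42.3 and 41.2 FPKM in si-NC, and fell by 0.54 ± 0.05 (adjusted p = 1.70e-06). For both kinase and decarboxylase the groups stood well apart. Acat2, a thiolase that joins acetyl-CoA units, had 33.02, 33.05 and 35.9 FPKM in si-Foxm1, against 40.9, 40.0 and 41.0 FPKM in si-NC (-0.25 ± 0.06, adjusted p = 0.00201). Idi1, the isomerase that follows Mvd, had 38.0, 37.1 and 40.9 FPKM in si-Foxm1, against 44.0, 42.1 and 44.3 FPKM in si-NC (-0.17 ± 0.04, adjusted p = 0.00146). Neither of these overlapped between groups, but both changes were smaller than those of the kinase and the decarboxylase. Pmvk, the next kinase (-0.38 ± 0.06), Fdps, farnesyl pyrophosphate synthase (-0.20 ± 0.03), and Hmgcs1, the synthase before mevalonate (-0.18 ± 0.05), fell as well. Ggps1, which makes the geranylgeranyl donor outside the sterol route, was higher by 0.12 ± 0.04 (adjusted p = 0.0276). That call ended without si-Foxm1 replicate 1 or 2, or si-NC replicate 1 or 2 (adjusted p of 0.0562 to 0.0856), and the value was 0.00 under median-of-ratios scaling.

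All 3 squalene and lanosterol genes fell: Sqle, squalene epoxidase (-0.39 ± 0.05), Lss, lanosterol synthase (-0.24 ± 0.05), and Fdft1, squalene synthase (-0.21 ± 0.04). Lss had 27.4, 26.2 and 29.0 FPKM in si-Foxm1, against 32.96, 32.0 and 33.2 FPKM in si-NC. Fdft1 shares 774 exon bases with Ctsb on the opposite strand in the GENCODE M21 annotation. Ctsb averaged 463 FPKM, and the strand setting of the counting is not given in the sources used here, so the Fdft1 values are uncertain.

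Among the 8 sterol ring genes, 5 fell and 1 rose. Sc5d, a sterol desaturase late in the route, had 29.1, 27.1 and 29.3 FPKM in si-Foxm1, against 45.8, 44.6 and 44.7 FPKM in si-NC. It fell by 0.64 ± 0.04 (adjusted p = 9.86e-09), the furthest of the 33. Ebp, the sterol isomerase before Sc5d, had 18.7, 17.7 and 18.9 FPKM in si-Foxm1, against 23.8, 22.1 and 23.2 FPKM in si-NC (-0.31 ± 0.04, adjusted p = 1.42e-05). Both genes were thus lower in every si-Foxm1 library than in any si-NC library. Msmo1, the methylsterol oxidase (-0.48 ± 0.05), Cyp51, the lanosterol demethylase (-0.32 ± 0.04), and Dhcr7, a reductase of the last step (-0.29 ± 0.05), also fell. Hsd17b7, a sterol ketone reductase, went the other way, with 39.5, 40.9 and 40.4 FPKM in si-Foxm1, against 27.9, 27.8 and 28.4 FPKM in si-NC (0.51 ± 0.04, adjusted p = 1.20e-07). Nsdhl, the dehydrogenase that acts with Msmo1, had 56.2, 56.8 and 61.3 FPKM in si-Foxm1, against 60.7, 59.4 and 60.7 FPKM in si-NC, and the groups overlapped (-0.05 ± 0.05, 95% interval -0.15 to 0.04). Tm7sf2, a sterol reductase, had 9.82, 9.63 and 10.2 FPKM in si-Foxm1, against 12.7, 9.78 and 10.5 FPKM in si-NC (-0.14 ± 0.08, adjusted p = 0.147). Without si-NC replicate 2, which overlapped with si-Foxm1, the value was -0.21 (adjusted p = 0.0362). Nsdhl and Tm7sf2 were also called lower under median-of-ratios scaling (-0.18 and -0.26).

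The regulators parted, with 2 of 5 lower and 1 higher (4 and 1 with median-of-ratios scaling). Srebf1 had 40.6, 40.2 and 36.2 FPKM in si-Foxm1, against 30.0, 31.3 and 31.5 FPKM in si-NC, and rose by 0.32 ± 0.05 (adjusted p = 3.46e-05). The paralogue Srebf2, whose product acts mainly on sterol genes, had 46.2, 45.9 and 48.7 FPKM in si-Foxm1, against 48.3, 49.2 and 49.3 FPKM in si-NC, with overlap (-0.06 ± 0.03, adjusted p = 0.134). Without si-Foxm1 replicate 3 the Srebf2 value was -0.09 (adjusted p = 0.0466). Transcript levels of these genes do not measure the cleaved, active SREBP proteins. Insig1, the sterol sensor partner and itself an SREBP target, had 150, 147 and 152 FPKM in si-Foxm1, against 179, 181 and 174 FPKM in si-NC, and fell by 0.25 ± 0.04 (adjusted p = 2.20e-04). Stard4, a carrier of cholesterol between membranes, had 22.2, 19.3 and 23.0 FPKM in si-Foxm1, against 31.0, 29.1 and 30.1 FPKM in si-NC, and fell by 0.47 ± 0.06 (adjusted p = 1.96e-05). Neither Insig1 nor Stard4 overlapped between the groups. Tmem97, a membrane protein of sterol transport, was not called (-0.04 ± 0.03).

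Fatty acid genes were lower in 5 of 9 cases and higher in 2. Fasn, fatty acid synthase, had 58.2, 54.8 and 53.1 FPKM in si-Foxm1, against 71.3, 69.5 and 71.2 FPKM in si-NC (-0.35 ± 0.04, adjusted p = 3.73e-06). Scd1, a stearoyl-CoA desaturase, had 116, 116 and 108 FPKM in si-Foxm1, against 148, 148 and 152 FPKM in si-NC (-0.40 ± 0.04, adjusted p = 9.45e-07). Its paralogue Scd2 had 417, 412 and 393 FPKM in si-Foxm1, against 466, 488 and 485 FPKM in si-NC (-0.23 ± 0.03, adjusted p = 8.97e-06). The synthase and both desaturases were separated without overlap, although reads of near-identical stretches of the desaturases could be split between them, as could those of Acat2 and its paralogue. Acly, which supplies cytosolic acetyl-CoA (-0.20 ± 0.04), and Fads1, a desaturase of polyunsaturated fatty acids (-0.13 ± 0.03), fell. Acaca, acetyl-CoA carboxylase, the committed enzyme just before Fasn, averaged 16.9 ± 0.9 FPKM in si-Foxm1 and 12.2 ± 0.2 FPKM in si-NC (SD, n = 3 each), and rose by 0.44 ± 0.04. Lpin1, a phosphatidate phosphatase, averaged 25.4 ± 1.2 FPKM in si-Foxm1 and 18.6 ± 0.6 FPKM in si-NC (SD, n = 3 each), and rose by 0.43 ± 0.04. Elovl6, the elongase of saturated fatty acids, had 20.5, 21.0 and 22.4 FPKM in si-Foxm1, against 23.0, 21.4 and 21.8 FPKM in si-NC, and was not called (-0.05 ± 0.05, 95% interval -0.17 to 0.06), nor was Fads2 (-0.06 ± 0.04). With median-of-ratios scaling Elovl6 (-0.18), Fads2 (-0.19), Tmem97 (-0.17) and Srebf2 (-0.19) were called lower.

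**Figure D2:**
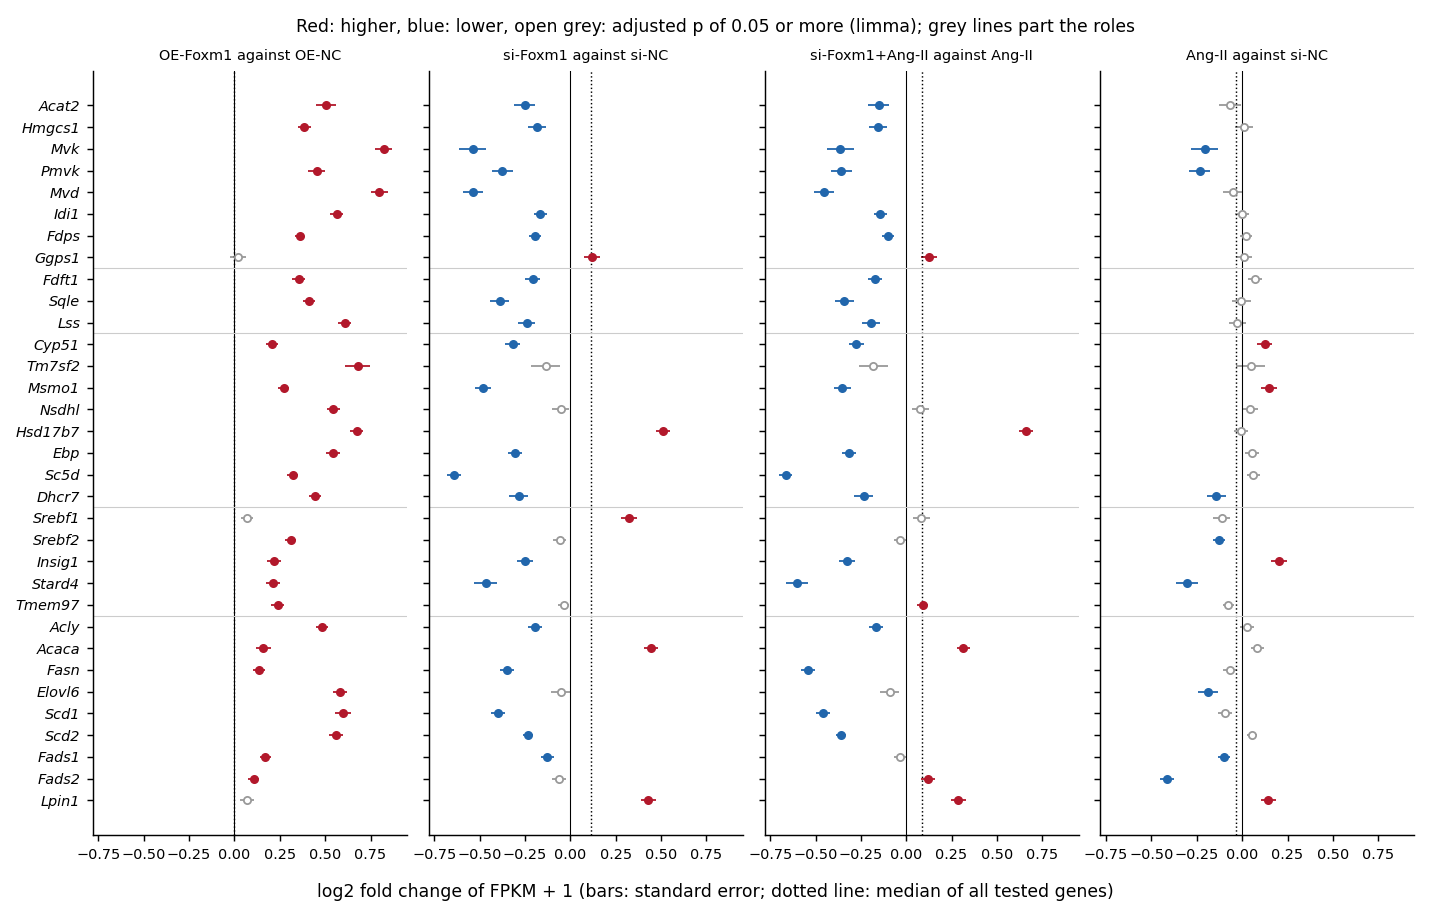
Log2 fold change of FPKM + 1 (horizontal axis) of each of the 33 genes (vertical axis, parted by role) in 4 comparisons; points are estimates, bars are standard errors, and the dotted line is the median of all tested genes. In OE-Foxm1 all points lie right of 0, whereas with the siRNA, alone or with Ang-II, most lie left of it except Hsd17b7, Acaca, Lpin1 and a few others.

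The lists of genes around the route are given beside the 17.2% lower and 48.5% higher of all tested genes in si-Foxm1, or 29.3% and 26.4% with median-of-ratios scaling. Several lists lay near these shares. Of 9 other sterol synthesis genes tested, 4 fell and 4 rose (5 and 3 with median-of-ratios scaling), among them Erg28, a scaffold of the sterol ring enzymes (-0.31 ± 0.06), Acat1, the mitochondrial thiolase (0.53 ± 0.04), and Por, an electron donor of Cyp51 (0.24 ± 0.04). In the isoprenoid branch 1 of 15 fell and 8 rose (2 and 3 with that scaling), with Chml at -0.15 ± 0.05, Pdss2, a ubiquinone chain synthase subunit, at 0.50 ± 0.05 and Coq2 at 0.28 ± 0.04. For sterol uptake and SREBP regulation 5 of 27 fell and 11 rose (11 and 4). The receptor gene Vldlr (-0.61 ± 0.04) and the sterol carrier gene Stard3 (-0.41 ± 0.05) were lowest, and the cholesteryl ester hydrolase gene Nceh1 (0.78 ± 0.05) and Gramd1b (0.48 ± 0.06) highest. In the list of fatty acid supply, elongation and desaturation, 6 of 26 fell and 10 rose (10 and 6), from Acss2, which makes acetyl-CoA from acetate (-0.59 ± 0.05), and Fads3 (-0.38 ± 0.03) to Mlxipl, the carbohydrate response factor (0.58 ± 0.06), and Thrsp, a lipogenic nuclear protein (1.79 ± 0.14). Of 27 glycerolipid genes, 5 fell and 14 rose (8 and 12), with Mgll, monoacylglycerol lipase, at -1.04 ± 0.05, G0s2 at -0.43 ± 0.11, Cideb at 1.19 ± 0.07 and Lpin3 at 0.87 ± 0.07. Of 29 fatty acid oxidation genes, 6 fell and 19 rose (8 and 15), from Ppara (-0.40 ± 0.06) and Fabp3 (-0.27 ± 0.04) to Hadhb, a subunit of the mitochondrial trifunctional protein (0.69 ± 0.03), and Ppard (0.70 ± 0.03).

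Markers of other cells moved with the siRNA. Of 16 cardiomyocyte markers 14 fell and 1 rose (15 and 0 with median-of-ratios scaling), and their summed level was 7210 to 7663 FPKM in si-Foxm1 and 13353 to 14376 in si-NC. All 9 tested of 11 macrophage and leukocyte markers fell, with sums of 131 to 163 FPKM in si-Foxm1 and 258 to 264 in si-NC. Of 13 fibroblast markers 4 fell and 2 rose (9 and 1 with that scaling), with sums of 3360 to 3553 FPKM in si-Foxm1 and 3545 to 3731 in si-NC. Smooth muscle and pericyte markers summed to 96.4 to 109 FPKM in si-Foxm1 and 127 to 136 in si-NC. Endothelial sums were higher with the siRNA, at 103 to 107 FPKM in si-Foxm1 and 84.4 to 92.1 in si-NC. Epicardial sums were higher too, at 101 to 105 FPKM in si-Foxm1 and 92.8 to 98.3 in si-NC. None of these markers was at 0 in a whole group. In bulk RNA, fewer cells of a type and less RNA per cell cannot be told apart, and the part of these cells in the changes of the 33 genes was not tested.

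**Figure D3:**
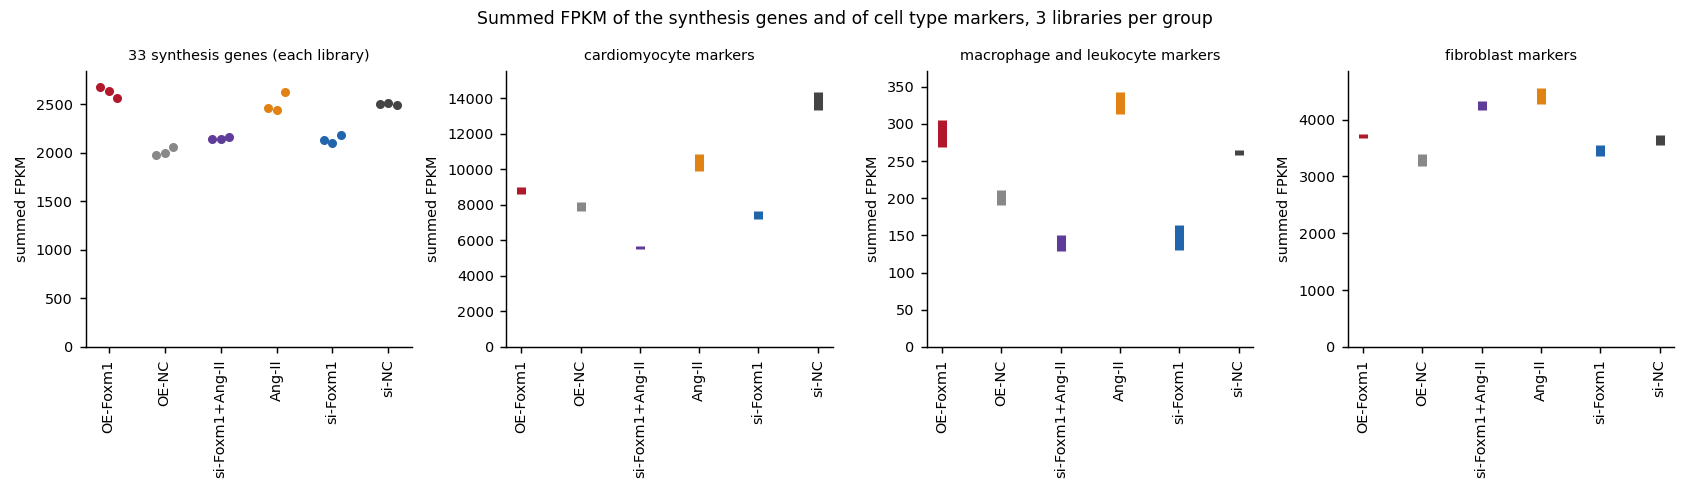
Summed FPKM (vertical axes, from 0) of the 33 synthesis genes in each library (points, left panel) and of cardiomyocyte, macrophage and fibroblast markers (bars from the lowest to the highest of 3 libraries), by group. The synthesis genes were at 2562 to 2675 FPKM in OE-Foxm1, 1980 to 2063 in OE-NC, 2105 to 2183 in si-Foxm1 and 2487 to 2510 in si-NC, and the cardiomyocyte sum was highest in si-NC.

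With Foxm1 overexpressed, nearly the whole route was higher. In OE-Foxm1 against OE-NC, 30 of 33 genes rose and 0 fell, where 27.1% of 11259 tested genes rose and 28.0% fell. At an unadjusted p under 0.05, 30 rose and 0 fell too, a threshold for which the share of all tested genes is not given here. A voom fit on recovered counts gave the same counts of 30 and 0, where 3135 of the 11259 tested genes rose and 3326 fell. The rises ran from 0.11 to 0.82, all under 2-fold, and the median was 0.38 over the 33 genes and 0.00 over all tested genes. Median-of-ratios scaling left the counts at 30 and 0, and so did leaving out each library.

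Early mevalonate genes rose in 7 of 8 cases. Mvk had 39.1, 38.9 and 37.0 FPKM in OE-Foxm1, against 21.8, 19.6 and 22.3 FPKM in OE-NC, the highest change of the 33 (0.82 ± 0.05, adjusted p = 4.63e-07). Mvd had 43.0, 41.4 and 42.0 FPKM in OE-Foxm1, against 23.1, 22.5 and 25.9 FPKM in OE-NC (0.80 ± 0.05, adjusted p = 6.24e-07). These were also the genes of this group that fell furthest with the siRNA. Idi1 had 47.9, 47.8 and 45.4 FPKM in OE-Foxm1, against 32.2, 31.5 and 30.8 FPKM in OE-NC (0.56 ± 0.03, adjusted p = 6.84e-07). Acat2 had 47.4, 47.2 and 52.5 FPKM in OE-Foxm1, against 35.5, 31.6 and 35.9 FPKM in OE-NC (0.50 ± 0.05, adjusted p = 3.09e-05). None of the 4 genes overlapped between the groups. Pmvk (0.45 ± 0.05), Hmgcs1 (0.38 ± 0.03) and Fdps (0.36 ± 0.03) rose as well, while Ggps1 was not called (0.02 ± 0.05, 95% interval -0.08 to 0.12).

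The squalene and lanosterol genes all rose, with Lss at 0.61 ± 0.04, Sqle at 0.41 ± 0.03 and Fdft1 at 0.35 ± 0.04. Lss had 36.1, 35.9 and 37.4 FPKM in OE-Foxm1, against 23.4, 22.9 and 24.4 FPKM in OE-NC. All 8 sterol ring genes rose too. Tm7sf2 had 13.01, 13.5 and 13.4 FPKM in OE-Foxm1, against 8.44, 6.87 and 8.58 FPKM in OE-NC (0.68 ± 0.07, adjusted p = 1.98e-05). Hsd17b7, which was higher with the siRNA, was higher here too, with 30.1, 28.8 and 29.8 FPKM in OE-Foxm1, against 18.7, 18.2 and 17.6 FPKM in OE-NC (0.67 ± 0.04, adjusted p = 3.34e-07). Nsdhl had 76.9, 73.7 and 72.4 FPKM in OE-Foxm1, against 49.7, 49.6 and 52.7 FPKM in OE-NC (0.54 ± 0.04, adjusted p = 1.10e-06). In each of these ring genes the OE-Foxm1 libraries lay above all OE-NC libraries. Ebp had 27.1, 25.6 and 26.2 FPKM in OE-Foxm1, against 18.4, 17.2 and 17.5 FPKM in OE-NC (0.54 ± 0.04, adjusted p = 1.66e-06). Sc5d, the furthest to fall with the siRNA, had 48.2, 47.0 and 46.0 FPKM in OE-Foxm1, against 37.5, 37.3 and 37.6 FPKM in OE-NC (0.32 ± 0.03, adjusted p = 1.21e-05). Dhcr7 (0.45 ± 0.03), Msmo1 (0.27 ± 0.03) and Cyp51 (0.21 ± 0.03) also rose.

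Of the regulators and transport genes, 4 of 5 rose. Srebf2 had 45.3, 45.2 and 47.3 FPKM in OE-Foxm1, against 36.5, 36.4 and 37.9 FPKM in OE-NC (0.31 ± 0.03, adjusted p = 2.77e-05). Insig1 had 201, 202 and 186 FPKM in OE-Foxm1, against 164, 166 and 176 FPKM in OE-NC (0.22 ± 0.04, adjusted p = 8.04e-04). Stard4 had 33.4, 31.4 and 33.1 FPKM in OE-Foxm1, against 27.7, 27.2 and 29.2 FPKM in OE-NC (0.21 ± 0.04, adjusted p = 8.13e-04). These 3 genes separated the groups. Srebf1 had 30.8, 30.0 and 30.9 FPKM in OE-Foxm1, against 28.3, 29.0 and 29.8 FPKM in OE-NC, without overlap, but the change was not called (0.07 ± 0.03, adjusted p = 0.0891). In the fatty acid group 8 of 9 genes rose. Scd1 had 154, 148 and 138 FPKM in OE-Foxm1, against 92.0, 97.2 and 100 FPKM in OE-NC (0.60 ± 0.04, adjusted p = 2.67e-06), and Scd2 had 465, 462 and 432 FPKM in OE-Foxm1, against 296, 309 and 316 FPKM in OE-NC (0.56 ± 0.04, adjusted p = 1.14e-06). Elovl6 had 27.4, 25.9 and 26.8 FPKM in OE-Foxm1, against 17.1, 17.2 and 18.2 FPKM in OE-NC (0.58 ± 0.04, adjusted p = 1.20e-06). Desaturases and elongase thus stood higher in every OE-Foxm1 library than in any OE-NC library. Fasn had 80.7, 82.7 and 86.4 FPKM in OE-Foxm1, against 74.1, 77.0 and 76.0 FPKM in OE-NC, a smaller rise (0.14 ± 0.03, adjusted p = 0.00522). Acly (0.48 ± 0.03), Acaca (0.16 ± 0.04), Fads1 (0.17 ± 0.03) and Fads2 (0.11 ± 0.03, but 0.06 and not called after quantile normalization) rose, and Lpin1 was not called (0.07 ± 0.04, 95% interval -0.01 to 0.15).

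The knockdown and overexpression comparisons share no library. All 22 genes that fell in si-Foxm1 rose in OE-Foxm1. Acaca and Hsd17b7 were higher in both, Ggps1, Lpin1 and Srebf1 were higher in si-Foxm1 and not called in OE-Foxm1, and Elovl6, Fads2, Nsdhl, Srebf2, Tm7sf2 and Tmem97 rose in OE-Foxm1 without a call in si-Foxm1. So the 3 genes without a rise in OE-Foxm1 were all among the 5 that rose in si-Foxm1. With 30 of 33 genes higher in OE-Foxm1, the direction of the other genes there was nearly fixed. Across the 33 genes the log2 fold changes of the knockdown and overexpression comparisons had a Pearson correlation of -0.33, and across 11021 genes tested in both of -0.13. Genes are not independent replicates, so these values are descriptions only.

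**Figure D4:**
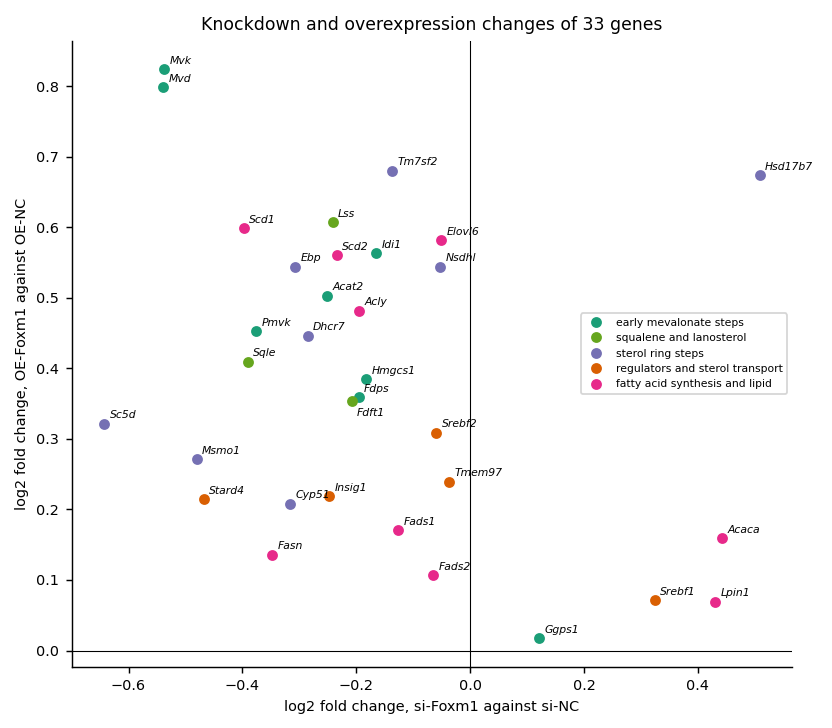
Log2 fold change in si-Foxm1 against si-NC (horizontal axis) and in OE-Foxm1 against OE-NC (vertical axis) of the 33 genes, each a point coloured by role. Mvk and Mvd lie at the upper left (-0.54 and 0.82, -0.54 and 0.80), and Hsd17b7 at the far upper right (0.51 and 0.67).

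The controls of the arms differed. In OE-NC 25 of the 33 genes lay below si-NC without overlap, and 3 (Fasn, Fads2 and Lpin1) above, against 26.6% of 11216 genes below and 43.9% above. Foxm1 itself was 15.7 to 17.1 FPKM in OE-NC and 9.64 to 10.4 in si-NC, the opposite order to these 25 genes. The OE-Foxm1 libraries of several genes were close to si-NC. For Mvk these were 37.0 to 39.1 FPKM in OE-Foxm1, 19.6 to 22.3 in OE-NC and 38.2 to 40.7 in si-NC, and for Mvd 41.4 to 43.0 in OE-Foxm1, 22.5 to 25.9 in OE-NC and 41.2 to 43.8 in si-NC. Hsd17b7 was 17.6 to 18.7 FPKM in OE-NC and 27.8 to 28.4 in si-NC. The arms also differ in how the cells were treated, so treatment and arm cannot be told apart, and no test was made between OE-NC and si-NC.

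The other lists in OE-Foxm1 are given beside 27.1% higher and 28.0% lower of all tested genes, and the isoprenoid and oxidation lists lay near these shares. Of 9 other sterol synthesis genes, 4 rose and 2 fell, with Erg28 at 0.66 ± 0.04, Nus1 at -0.17 ± 0.04 and Acat1 at -0.14 ± 0.03. Of 27 genes of sterol uptake and SREBP regulation, 10 rose and 7 fell. Insig2, a paralogue of Insig1 (0.41 ± 0.05), was among the highest, and Erlin1 (-0.45 ± 0.05) and Vldlr (-0.28 ± 0.06) were lowest. The isoprenoid branch had 3 of 15 higher and 4 lower, with Dhdds at 0.17 ± 0.05, Chml at -0.46 ± 0.05 and Rabggtb at -0.32 ± 0.04. Of 26 fatty acid supply, elongation and desaturation genes, 11 rose and 5 fell, from Acss2 (0.70 ± 0.04) and Hacd1 (0.37 ± 0.04) to Mcat (-0.23 ± 0.04) and Thrsp (-0.29 ± 0.08). Acss2, Thrsp, Erg28 and Acat1 had each gone the opposite way with the siRNA, while Vldlr and Chml had fallen there as well. Of 26 glycerolipid genes 10 rose and 2 fell, with Mogat2 at 0.57 ± 0.09, Fitm1, a lipid droplet protein, at 0.56 ± 0.04, Plin4 at -0.20 ± 0.04 and Agpat4 at -0.32 ± 0.04. Of 29 oxidation genes 7 rose and 8 fell (7 and 6 under median-of-ratios scaling), from Acot1 (0.46 ± 0.09) and Acaa1a (0.35 ± 0.05) to Acadl (-0.19 ± 0.03) and Ppargc1a (-0.37 ± 0.06). Of 16 cardiomyocyte markers 10 rose and 2 fell, with sums of 8625 to 8986 FPKM in OE-Foxm1 and 7661 to 8151 in OE-NC. Of 9 macrophage and leukocyte markers 5 rose and 3 fell, with sums of 269 to 305 FPKM in OE-Foxm1 and 191 to 211 in OE-NC. Of 13 fibroblast markers 7 rose and 1 fell, with sums of 3684 to 3747 FPKM in OE-Foxm1 and 3179 to 3393 in OE-NC. Endothelial sums were 81.4 to 90.2 FPKM in OE-Foxm1 and 70.0 to 77.0 in OE-NC. Smooth muscle and pericyte sums were lower, at 109 to 116 FPKM in OE-Foxm1 and 135 to 138 in OE-NC. Epicardial sums were lower too, at 63.7 to 67.7 FPKM in OE-Foxm1 and 69.5 to 72.8 in OE-NC. Their part in the changes of the 33 genes was not tested.

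**Figure D5:**
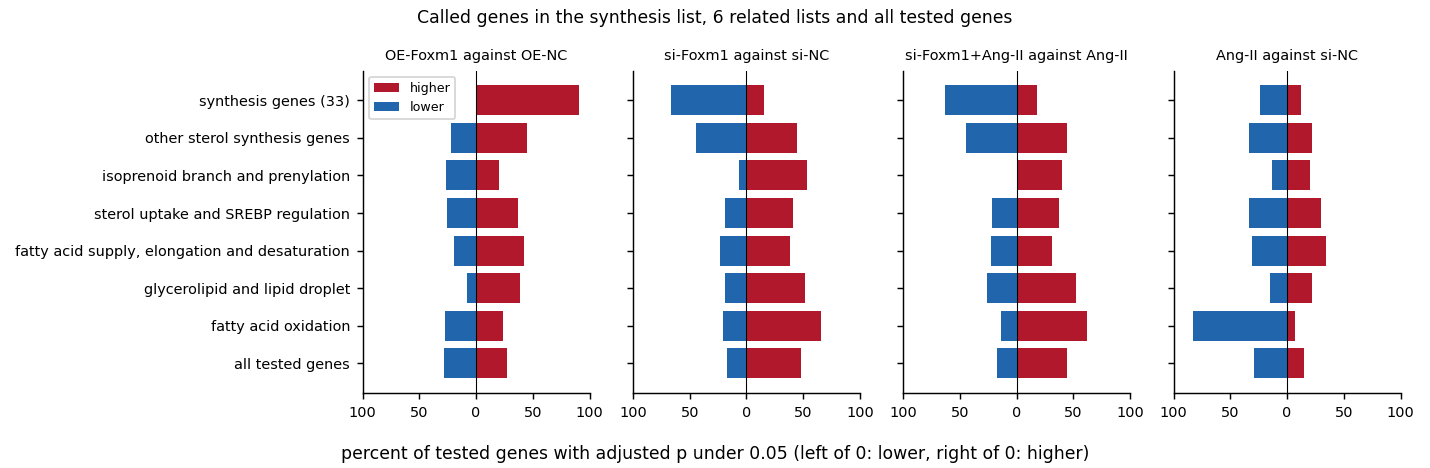
Percent of tested genes called higher (right of 0) and lower (left of 0) at an adjusted p under 0.05 in the 33 synthesis genes, 6 related lists and all tested genes, for 4 comparisons. The synthesis genes had 90.9% higher in OE-Foxm1 and 66.7% lower in si-Foxm1, against 27.1% and 17.2% of all tested genes, and fatty acid oxidation genes were mostly lower in Ang-II.

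Under angiotensin most of the route was again lower with the siRNA. What siRNA, if any, the Ang-II cells had is not stated, so the Foxm1 siRNA and the presence of any siRNA cannot be told apart here. In si-Foxm1+Ang-II against Ang-II, 21 of the 33 genes fell and 6 rose, against 17.4% of all tested genes that fell and 44.0% that rose (25 lower and 3 higher with median-of-ratios scaling, against 27.9% and 27.6% of all tested genes). These libraries are separate from those of si-Foxm1 and si-NC. The median was -0.17 over the 33 genes and 0.09 over all tested genes. Sc5d had 28.3, 28.9 and 30.7 FPKM in si-Foxm1+Ang-II, against 47.8, 45.8 and 47.6 FPKM in Ang-II (-0.67 ± 0.04, adjusted p = 6.80e-09). Stard4 had 15.7, 15.03 and 16.0 FPKM in si-Foxm1+Ang-II, against 23.3, 22.8 and 26.5 FPKM in Ang-II (-0.60 ± 0.06, adjusted p = 2.24e-06). Fasn had 47.1, 46.3 and 44.2 FPKM in si-Foxm1+Ang-II, against 68.6, 64.4 and 69.0 FPKM in Ang-II (-0.54 ± 0.04, adjusted p = 5.97e-08). These 3 genes fell furthest, with no overlap. On the other side Hsd17b7 had 43.7, 43.9 and 45.9 FPKM in si-Foxm1+Ang-II, against 26.5, 27.2 and 29.8 FPKM in Ang-II, and rose by 0.66 ± 0.04 (adjusted p = 1.08e-08).

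Other falls under angiotensin were spread over the route. Mvd had 31.9, 27.8 and 29.2 FPKM in si-Foxm1+Ang-II, against 41.7, 38.5 and 42.6 FPKM in Ang-II (-0.45 ± 0.05, adjusted p = 8.69e-06). Mvk had 25.0, 27.0 and 26.0 FPKM in si-Foxm1+Ang-II, against 31.2, 32.6 and 37.7 FPKM in Ang-II (-0.36 ± 0.08, adjusted p = 8.95e-04). Neither kinase nor decarboxylase overlapped between the groups. Scd1 had 104, 98.7 and 101 FPKM in si-Foxm1+Ang-II, against 138, 135 and 147 FPKM in Ang-II (-0.46 ± 0.04, adjusted p = 2.62e-07). Scd2 had 390, 389 and 383 FPKM in si-Foxm1+Ang-II, against 493, 495 and 506 FPKM in Ang-II (-0.36 ± 0.03, adjusted p = 1.83e-07). Insig1 had 165, 159 and 166 FPKM in si-Foxm1+Ang-II, against 195, 198 and 224 FPKM in Ang-II (-0.33 ± 0.04, adjusted p = 2.25e-05). Both desaturases and Insig1 were lower in every library with the siRNA. Ebp (-0.32 ± 0.04) fell and Acaca (0.31 ± 0.04) and Lpin1 (0.29 ± 0.04) rose.

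Several smaller calls under angiotensin ended when 1 library was left out. Acat2 (-0.15) lost its call without si-Foxm1+Ang-II replicate 2 or 3 or Ang-II replicate 1 or 3, and stood at -0.09 without Ang-II replicate 3. Hmgcs1 (-0.16) stood at -0.10 without Ang-II replicate 3 (adjusted p = 0.0607). Fdps (-0.10) lost its call without si-Foxm1+Ang-II replicate 1 or 3 or Ang-II replicate 3. Those 3 genes belong to the early mevalonate steps, as does Ggps1 (0.12), which lost its call without si-Foxm1+Ang-II replicate 1 or 3 or Ang-II replicate 1 or 3 and stood at 0.08 without si-Foxm1+Ang-II replicate 3. Tmem97 (0.09) lost its call without si-Foxm1+Ang-II replicate 2 or Ang-II replicate 2, and was -0.01 with median-of-ratios scaling. Fads2 (0.12) lost its call without si-Foxm1+Ang-II replicate 1 or Ang-II replicate 1 or 2. Ggps1 (0.03) and Fads2 (0.02) also lost their calls with that scaling. Without Ang-II replicate 2, Elovl6 (-0.14, adjusted p = 0.0411) and Tm7sf2 (-0.24, adjusted p = 0.0292) were called lower. Ang-II replicate 3 differed most from its group, with mean chi-square values of up to 5.46 against 1 for counting error alone. Of the other lists, sterol synthesis had 4 of 9 lower and 4 higher (4 and 1 with median-of-ratios scaling), the isoprenoid branch 0 of 15 lower and 6 higher (3 and 4), sterol uptake 6 of 27 lower and 10 higher (10 and 2), fatty acid supply 6 of 26 lower and 8 higher (10 and 7), glycerolipid 7 of 27 lower and 14 higher (9 and 10), and oxidation 4 of 29 lower and 18 higher (8 and 17). All 9 tested macrophage and leukocyte markers fell, with sums of 129 to 150 FPKM in si-Foxm1+Ang-II and 313 to 343 in Ang-II. Of 16 cardiomyocyte markers 13 fell and 2 rose, with sums of 5511 to 5685 FPKM in si-Foxm1+Ang-II and 9935 to 10872 in Ang-II. Endothelial sums were higher, at 71.0 to 78.4 FPKM in si-Foxm1+Ang-II and 61.9 to 69.3 in Ang-II. Smooth muscle and pericyte sums were 124 to 131 FPKM in si-Foxm1+Ang-II and 144 to 165 in Ang-II. Fibroblast sums overlapped, at 4171 to 4321 FPKM in si-Foxm1+Ang-II and 4272 to 4561 in Ang-II. Their part in the changes of the 33 genes was not tested.

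Whether the siRNA effect differed with and without angiotensin was tested as a difference of the 2 effects. Its limit is that the siRNA of the Ang-II cells, if any, is not stated. By limma 0 of the 33 genes were called higher and 0 lower, against 0.403% and 0.519% of all tested genes. At an unadjusted p under 0.05, 8 of the 33 passed, a threshold for which the share of all tested genes is not given here. The voom fit called 2 of the 33 lower, Srebf1 and Fasn, where it called 112 of all 11180 tested genes higher and 117 lower. Srebf1 had the smallest adjusted p by limma (-0.24 ± 0.06, 95% interval -0.38 to -0.10, adjusted p = 0.107) and Fasn the next (-0.20 ± 0.05, 95% interval -0.31 to -0.08, adjusted p = 0.114). Srebf1 had 31.9, 30.0 and 28.9 FPKM in si-Foxm1+Ang-II, against 29.1, 27.9 and 28.5 FPKM in Ang-II, with overlap (0.08 ± 0.05, adjusted p = 0.132). The difference passed without si-Foxm1 replicate 3 (-0.29, adjusted p = 0.0247). Without Ang-II replicate 3, Hsd17b7 (0.20, adjusted p = 0.0402) and Fads2 (0.23, adjusted p = 0.0136) passed.

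Fewer of these genes differed between Ang-II and si-NC, and before any rescaling the counts lay near the shares of all tested genes. In Ang-II against si-NC, 4 of the 33 genes rose and 8 fell, against 15.2% and 29.2% of all tested genes, and 9 rose and 4 fell with median-of-ratios scaling, against 22.2% and 21.7%. The balance over all tested genes thus moved with the scaling too. The si-NC libraries are also those of the siRNA comparison, and the Ang-II libraries those of the comparison above. The median was -0.01 over the 33 genes and -0.03 over all tested genes. Foxm1 was 4.03 to 5.65 FPKM in Ang-II, 5.13 to 6.71 in si-Foxm1 and 9.64 to 10.4 in si-NC. In the same order the sums of the 33 genes were 2441 to 2621, 2105 to 2183 and 2487 to 2510 FPKM. The Ang-II sums thus overlapped those of si-NC although Foxm1 was lower in Ang-II, and the relation of these genes to the Foxm1 level was not tested. Insig1 had 195, 198 and 224 FPKM in Ang-II, against 179, 181 and 174 FPKM in si-NC (0.20 ± 0.04, adjusted p = 0.00177), and rose the furthest. Stard4 had 23.3, 22.8 and 26.5 FPKM in Ang-II, against 31.0, 29.1 and 30.1 FPKM in si-NC (-0.30 ± 0.06, adjusted p = 0.00126). Elovl6 had 18.9, 17.96 and 21.1 FPKM in Ang-II, against 23.0, 21.4 and 21.8 FPKM in si-NC (-0.19 ± 0.05, adjusted p = 0.0111). Srebf2 had 44.2, 43.4 and 46.7 FPKM in Ang-II, against 48.3, 49.2 and 49.3 FPKM in si-NC (-0.13 ± 0.03, adjusted p = 0.00776). The groups did not overlap for any of these 4 genes. Fads2, the first desaturase of polyunsaturated fatty acids, averaged 80.9 ± 5.1 FPKM in Ang-II and 108 ± 0.8 FPKM in si-NC (SD, n = 3 each), the furthest fall (-0.42 ± 0.04).

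Most of the other angiotensin calls depended on which libraries were used. Msmo1 (0.15) lost its call without Ang-II replicate 3 or si-NC replicate 3, Lpin1 (0.14) without Ang-II replicate 2 or si-NC replicate 1, and Cyp51 (0.12) without Ang-II replicate 2 or 3 or si-NC replicate 1 or 3. Mvk (-0.21) lost it without Ang-II replicate 1 or 2 or any si-NC replicate, Dhcr7 (-0.14) without Ang-II replicate 1 or 2 or si-NC replicate 2 or 3, Fads1 (-0.10) without Ang-II replicate 1 or 2 or si-NC replicate 1 or 2, and Elovl6 without Ang-II replicate 2 or si-NC replicate 1. With median-of-ratios scaling Mvk (-0.16), Dhcr7 (-0.09) and Fads1 (-0.05) were not called. Scd1 (-0.13) and Tmem97 (-0.09) were called lower without Ang-II replicate 3. So 2 to 4 genes were called higher and 4 to 10 lower. The count of 2 higher came without Ang-II replicate 2 or 3 or si-NC replicate 1 or 3, the count of 4 lower without Ang-II replicate 2, and a count of 5 lower without Ang-II replicate 1 or si-NC replicate 1 or 2. Pmvk (-0.23 ± 0.06), Stard4, Fads2, Srebf2 and Insig1 kept their calls whichever library was left out, although Srebf2 lost it with median-of-ratios scaling (-0.08). Of 9 other sterol synthesis genes, 2 rose and 3 fell (4 and 2 with median-of-ratios scaling), with Acat1 (-0.37 ± 0.04) and Por (-0.30 ± 0.04) lowest. For sterol uptake and SREBP regulation 8 of 27 rose and 9 fell (11 and 5), from the receptor gene Lrp1 (0.64 ± 0.03) to Soat1, which esterifies cholesterol (-0.49 ± 0.05), and Ch25h, which makes a hydroxysterol (-1.70 ± 0.15). Of 29 fatty acid oxidation genes 24 fell and 2 rose (22 and 2), with Fabp3, the heart fatty acid binding protein, at -0.81 ± 0.04, Acaa2 at -0.52 ± 0.03, Acot2 at 0.20 ± 0.04 and Pdk4 at 0.29 ± 0.05. The isoprenoid branch had 3 of 15 higher and 2 lower (5 and 1), fatty acid supply 9 of 26 higher and 8 lower (11 and 6), and glycerolipid genes 6 of 27 higher and 4 lower (12 and 2). Of 16 cardiomyocyte markers 15 fell and 1 rose, with sums of 9935 to 10872 FPKM in Ang-II and 13353 to 14376 in si-NC. Of 9 macrophage and leukocyte markers 1 fell and 4 rose, with sums of 313 to 343 FPKM in Ang-II and 258 to 264 in si-NC. Fibroblast sums were 4272 to 4561 FPKM in Ang-II and 3545 to 3731 in si-NC. Smooth muscle and pericyte sums were 144 to 165 FPKM in Ang-II and 127 to 136 in si-NC. Endothelial sums were lower, at 61.9 to 69.3 FPKM in Ang-II and 84.4 to 92.1 in si-NC. Their part in these changes was not tested.

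Added to the siRNA, angiotensin moved a similar number of genes. Rises were somewhat more frequent and falls less frequent than among all tested genes, and some calls rested on single libraries. In si-Foxm1+Ang-II against si-Foxm1, 7 of the 33 rose and 8 fell, against 12.9% and 34.6% of all tested genes (12 and 5 with median-of-ratios scaling, against 22.1% and 20.3%, and 4 higher without si-Foxm1 replicate 2). Stard4 had 15.7, 15.03 and 16.0 FPKM in si-Foxm1+Ang-II, against 22.2, 19.3 and 23.0 FPKM in si-Foxm1 (-0.44 ± 0.06, adjusted p = 6.34e-05). Srebf1 had 31.9, 30.0 and 28.9 FPKM in si-Foxm1+Ang-II, against 40.6, 40.2 and 36.2 FPKM in si-Foxm1 (-0.35 ± 0.05, adjusted p = 2.83e-05). Both fell without overlap, as did Fasn (-0.27 ± 0.04), Fads2 (-0.23 ± 0.04), Elovl6 (-0.23 ± 0.05), Pmvk (-0.22 ± 0.06) and Scd1 (-0.16 ± 0.04). The ring genes Msmo1 (0.28 ± 0.05), Cyp51 (0.17 ± 0.04), Nsdhl (0.17 ± 0.05) and Hsd17b7 (0.14 ± 0.04) rose. Fdps (0.12), Insig1 (0.12) and Fdft1 (0.10) were also called higher and Srebf2 (-0.10) lower, and each lost its call when a library was left out. These were si-Foxm1+Ang-II replicate 2 or si-Foxm1 replicate 2 for Fdps, si-Foxm1+Ang-II replicate 1 or 3 or si-Foxm1 replicate 1 or 2 for Insig1, any si-Foxm1+Ang-II replicate or si-Foxm1 replicate 1 or 2 for Fdft1, and si-Foxm1+Ang-II replicate 1 or 3 or si-Foxm1 replicate 3 for Srebf2. With median-of-ratios scaling Pmvk (-0.14), Scd1 (-0.08) and Srebf2 (-0.02) were not called. Without si-Foxm1 replicate 3, Scd2 (-0.10) was called lower and Tmem97 (0.08) higher. Other lists gave 2 of 9 higher and 2 lower for other sterol synthesis (3 and 2 with median-of-ratios scaling), 1 of 15 and 2 for the isoprenoid branch (3 and 0), 4 of 27 and 11 for sterol uptake (10 and 5), 5 of 26 and 8 for fatty acid supply (10 and 5), 2 of 27 and 7 for glycerolipid (8 and 3), and 1 of 29 and 26 for oxidation (1 and 22). Of 16 cardiomyocyte markers 13 fell, with sums of 5511 to 5685 FPKM in si-Foxm1+Ang-II and 7210 to 7663 in si-Foxm1. Fibroblast sums were higher, at 4171 to 4321 FPKM in si-Foxm1+Ang-II and 3360 to 3553 in si-Foxm1. Smooth muscle and pericyte sums were 124 to 131 FPKM in si-Foxm1+Ang-II and 96.4 to 109 in si-Foxm1. Endothelial sums were lower, at 71.0 to 78.4 FPKM in si-Foxm1+Ang-II and 103 to 107 in si-Foxm1. The part of these cells in these changes was not tested.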

How the data were processed

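The deposited table holds FPKM values with 1 column for each of 18 libraries and genes named by symbol. Per the submitters' processing notes, the authors' tools were fastp, HISAT2 and HTSeq and the genome was mm39. Their versions, the annotation and the strand setting were not given in the sources used here. Per the labels' protocols, total RNA came from the mirVana kit, had an RNA integrity number of at least 7, and went into TruSeq stranded mRNA libraries at 4 μg. Groups and replicate numbers are those of the sample titles.

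Values were taken as log2(FPKM + 1), that is with a pseudocount of 1, and tested with limma 3.58.1 in R 4.3.3 (eBayes with trend, a mean per group). The 12 knockdown libraries formed 1 fit and the 6 overexpression libraries another. A gene was tested where its mean over the libraries of the fit reached 1 FPKM. Benjamini-Hochberg adjustment ran over every tested gene, and an adjusted p under 0.05 made a call. Whole counts were recovered from ratios between libraries, to within 0.02 for all 17960 genes above 0, which gave the library totals and a voom fit. In replicate comparisons no library was a duplicate (mean chi-square of 1.69 to 5.46). On simulated data with 50 genes changed by 1.25-fold in each comparison, 45 were recovered for si-Foxm1 against si-NC, 43 for Ang-II against si-NC, 37 for si-Foxm1+Ang-II against Ang-II and 45 for OE-Foxm1 against OE-NC, among 11232 to 11237 genes. Of 50 genes changed by 1.15-fold, the smallest change simulated, 27, 22, 16 and 15 were recovered in the same comparisons. The simulation gave every gene and library the same small extra spread and changed few genes. Real replicates reached a mean chi-square of 5.46 and far more genes were called, so these rates need not hold for the real data.

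The 33 genes and the other lists were chosen with earlier results of these data known. FPKM of each library is given for genes called in at least 1 comparison with no overlap and a log2 fold change of at least 0.5 in size, and for Srebf1, Srebf2 and Insig1. In the other lists the named genes are those called with the 2 highest and 2 lowest changes in si-Foxm1, OE-Foxm1 and Ang-II. Some genes that this rule names are not reported here. The alternatives tried were voom, each library left out, a replicate block, another pseudocount (0.1), a lower filter (0.1 FPKM) or no filter, fits to all 6 groups or to the compared groups alone, and scaling by quantiles or by median of ratios. Promoters came from RefSeq and exon overlaps from GENCODE M21, both GRCm38. Figures and tables were made in Python 3.11.15.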

Additional observations from a re-analysis of the deposited data

Results flagged for a closer look

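In the lists beside the 33 genes, the siRNA effect differed with and without angiotensin for 3 genes by the test of the difference itself (limma, adjusted over all tested genes). Of all tested genes, 0.403% were called higher and 0.519% lower by that test, and these 3 are named because they passed it. Mgll, monoacylglycerol lipase, fell with the siRNA by 1.57 on the log2 scale with angiotensin and by 1.04 without, a difference of -0.53 (adjusted p = 0.00435). Agpat2, an acyltransferase of phosphatidate synthesis, stood at -0.23 with angiotensin and 0.07 without (adjusted p = 0.0915), a difference of -0.30 (adjusted p = 0.0137). Pdk4, a kinase that restrains glucose oxidation, stood at -0.12 with angiotensin (adjusted p = 0.0658) and 0.26 without, a difference of -0.37 (adjusted p = 0.0290). Why these differ was not tested, and the siRNA of the Ang-II cells, if any, is not stated.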

How the results depend on the processing

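Of the 12 counts of called genes among the 33, those of si-Foxm1 against si-NC and OE-Foxm1 against OE-NC stayed within 1.5 times under every alternative. For Ang-II against si-NC, the 4 higher became 8 under quantile normalization and 9 under median-of-ratios scaling, and the 8 lower became 5 and 4. For si-Foxm1+Ang-II against Ang-II, 6 higher became 3 under both scalings. For si-Foxm1+Ang-II against si-Foxm1, 7 higher and 8 lower became 12 and 5 under the second scaling. The differences between siRNA effects had 0 lower genes, 1 with all 6 groups in 1 fit and 2 with voom. With each library left out, 4 to 5 were higher and 22 to 23 lower in si-Foxm1 against si-NC, 2 to 4 and 4 to 10 in Ang-II against si-NC, 4 to 5 and 18 to 23 in si-Foxm1+Ang-II against Ang-II, 4 to 8 and 7 to 8 in si-Foxm1+Ang-II against si-Foxm1, 0 to 2 and 0 to 1 for the difference, and 30 and 0 in OE-Foxm1 against OE-NC. Of the changes called, 4 had the opposite sign under median-of-ratios scaling: Tmem97 in si-Foxm1+Ang-II against Ang-II (-0.0060), and Acsl1 (-0.029), Fnta (-0.0080) and Rabggtb (-0.017) in si-Foxm1 against si-NC, none of them called there. The cause of these moves was not tested, beyond the shift of the median that scaling removes. Same-numbered libraries deviated together with correlations of -0.04 to 0.18, over 0.1 in 8 of 21 pairs. Such weak values cannot show whether the numbers pair samples. A replicate block gave the same counts, such as 22 lower and 5 higher in si-Foxm1 against si-NC and 30 higher in OE-Foxm1 against OE-NC. With 3 libraries a group, a small change that was not called may have been missed. Counting error bears most on Tm7sf2, with the fewest fragments (160 to 349 per library).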
